A study of Mus musculus with 6 samples.

Results

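The aminoacyl-tRNA synthetases are the enzymes that load each tRNA with its amino acid. They were taken as the protein-coding genes whose symbols match the family's names, such as Aars for the alanyl enzyme or Aars2 for its mitochondrial counterpart. This gave 37 genes of 54532 in the deposited tables. Of these, 20 encode cytosolic enzymes and 17, with symbols ending in 2, encode mitochondrial enzymes. Expression was measured by sequencing total RNA of C57BL/6 mouse macrophages. These phagocytes were derived in culture from bone marrow. One group was transfected with a small interfering RNA against the chemokine receptor CXCR4 (siCXCR4), and the other with a negative-control siRNA (siNC). Both groups were treated with lipopolysaccharide (LPS), the bacterial cell-wall component sensed by TLR4, at 100 ng/ml for 12 hours, so that no unstimulated cells enter any comparison. The labels name 3 samples per group. The table labelled siNC replicate 3 held, as whole reads, the same value as siNC replicate 2 in all 19072 genes with reads. These 2 tables differed by less than sampling noise and were counted as 1 sample, which left 3 siCXCR4 and 2 siNC libraries. Nothing in the labels ties replicates to separate animals or cultures, so p-values measure only how far these samples spread, which may be technical.

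A synthetase activates its amino acid with ATP and transfers it to the matching tRNA, and the charged tRNA is what the ribosome uses. The mitochondrial ribosome draws on a set of enzymes that are encoded by separate nuclear genes and imported. Gars and Kars serve both compartments from a single gene, and mitochondria make glutaminyl-tRNA by amidation rather than with an enzyme of their own. Several cytosolic synthetases are held in the multisynthetase complex by the scaffold proteins encoded by Aimp1, Aimp2 and Eef1e1. When charged tRNA runs short, the kinase GCN2 senses it, the factor ATF4 is made, and ATF4 is known to induce many cytosolic synthetase genes. In human cells WARS, the tryptophanyl enzyme, is known as an interferon-induced gene.

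The libraries held 18890751 to 21780840 reads in genes. Macrophage markers were at high levels in every library: the summed level of the 8 markers was 4149 to 4513 FPKM in siCXCR4, against 4287 and 4525 FPKM in siNC. Lyz2 alone averaged 2365 FPKM, so the sum says little of the others. All siCXCR4 values lay above both siNC values for Cd68 and below them for Mertk, and 6 markers overlapped. Of all genes averaging 1 FPKM or more, 17.9% lay above and 9.92% below in this way. FPKM scales reads by gene length and by the library's total. Cxcr4, the target of the siRNA, had 31.1, 36.2 and 32.7 FPKM in siCXCR4, against 41.3 and 42.1 FPKM in siNC. Its log2 fold change was -0.32 (SE 0.0704, limma adjusted p = 0.457), and the exact permutation test, two-sided, gave p = 0.1, the smallest that 3 libraries against 2 allow. The neutrophil markers S100a8 and S100a9 were lower in siCXCR4: the summed level of the 5 neutrophil markers was 48.5 to 57.2 FPKM in siCXCR4, against 68.4 and 70.7 FPKM in siNC. The defining neutrophil genes Ly6g, Elane and Mpo were at or near 0, at most 0.162 FPKM in any library. Of the 4 dendritic cell markers, Ccr7 was above the filter, and the summed level was 3.56 to 4.41 FPKM in siCXCR4 and 4.23 to 4.39 FPKM in siNC. Summed B cell, T cell, stromal and erythroid markers were at most 0.353 FPKM in any library. The chi-square per gene between libraries is larger for a larger distance. By it, siCXCR4 replicate 2 lay nearer to siNC replicates 1 (4.50) and 2 (5.88) than to siCXCR4 replicates 1 (6.87) and 3 (8.66). The siNC libraries were 5.24 apart, so siNC replicate 1 was also nearer to siCXCR4 replicate 2 than to siNC replicate 2. The siCXCR4 replicates 1 and 3 were nearest to each other (4.42). The libraries also differed in the share of the FPKM denominator that lay outside the listed genes, which was 0.00033%, 0.312% and 1.37% in siCXCR4 and 2.80% and 2.15% in siNC. The part of these differences in the results that follow was not tested.

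Levels in FPKM separated the classes completely. Every cytosolic gene was above every mitochondrial gene in every library, the lowest cytosolic value being 9.64 FPKM (Eprs) and the highest mitochondrial value 5.84 FPKM (Iars2). The median over genes of the mean level was 16.9 FPKM for the cytosolic and 1.72 FPKM for the mitochondrial enzymes. Wars, the tryptophanyl enzyme, was the most abundant member, with 122, 107 and 124 FPKM in siCXCR4, against 111 and 118 FPKM in siNC. The groups overlapped, with siCXCR4 replicate 2 the lowest of all libraries, and the log2 fold change was 0.03 (SE 0.0772). Nars, the asparaginyl enzyme, came next with 107, 100.5 and 99.4 FPKM in siCXCR4, against 95.7 and 96.2 FPKM in siNC. All siCXCR4 values of Nars lay above both siNC values, by a log2 fold change of 0.09 (SE 0.0534, limma adjusted p = 0.619). After these stood Rars, Aars, Gars and Sars, at means over all libraries of 64.0, 44.9, 35.0 and 33.0 FPKM. The cytosolic values rested on 780 to 9332 reads per gene and library, and the mitochondrial values on 50 to 1136, so the classes overlapped in reads. Abundance here means FPKM, which divides by the listed gene length, 18102 bases for Eprs and 8885 for Iars2. Ranks between genes therefore depend on that length.

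**Figure D1:**
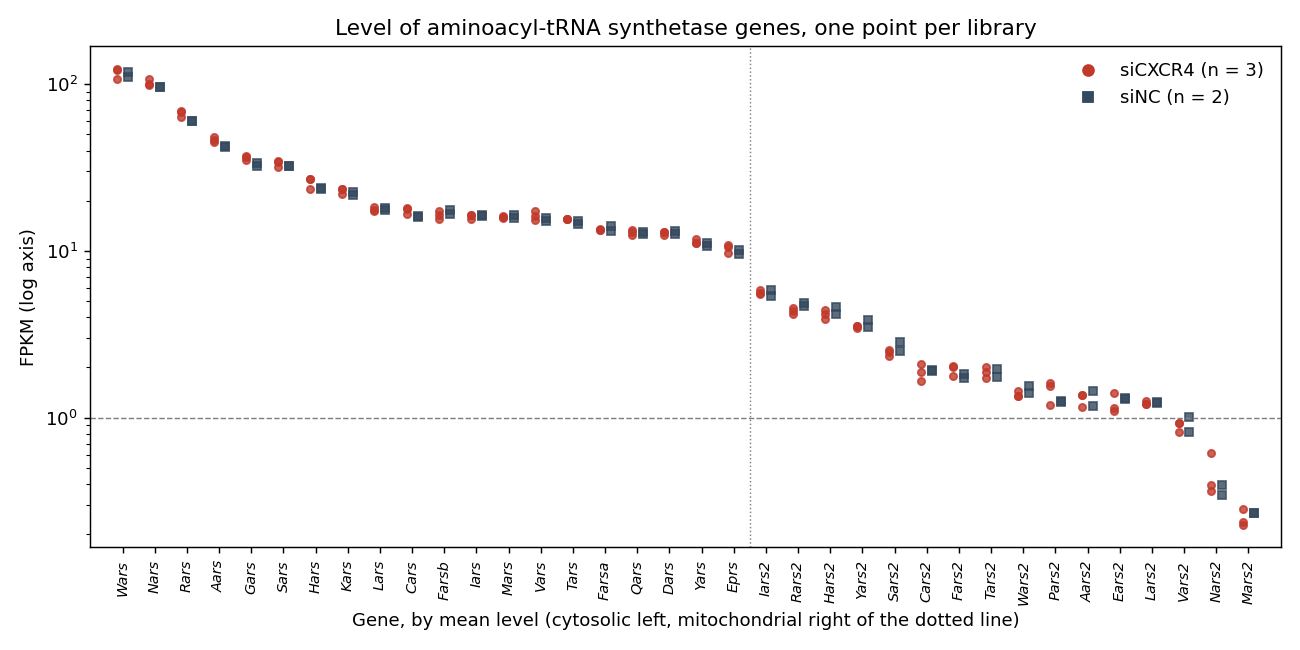
FPKM of 36 synthetase genes on a log axis, in order of their mean level, with 1 point per library (siCXCR4 circles, siNC squares) and a dashed line at the filter of 1 FPKM. The 20 cytosolic genes lie left of the dotted line, none below 9.64 FPKM, and 16 mitochondrial genes right of it, none above 5.84 FPKM.

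The siCXCR4 libraries were compared with siNC by limma on log2(FPKM + 1), fitted over the 9943 genes that averaged 1 FPKM or more. All 20 cytosolic genes passed that filter, and 0 of them had an adjusted p under 0.05, as did 0% of all genes tested. At an unadjusted p under 0.05, 3 cytosolic genes were higher in siCXCR4 and 0 were lower, where 5.80% of all genes tested were higher and 3.54% lower. These were Gars, Rars and Aars. With read counts in place of FPKM, the quasi-likelihood test of edgeR gave 0 of 20 at an adjusted p under 0.05, where it called 0.133% of all genes. At an unadjusted p under 0.05 it gave 2 higher (Gars and Rars) and 0 lower, where 4.46% of all genes were higher and 5.27% lower. DESeq2 gave 0 of 20 past the adjusted threshold, where it called 0.234% of all genes, and 2 higher (Rars and Aars) at an unadjusted p under 0.05, where 2.38% were. The limma count of 3 changed when single libraries were left out: it was 0, 4 and 1 without siCXCR4 replicates 1, 2 and 3. Of all genes tested, 3.19%, 7.92% and 4.20% were higher at an unadjusted p under 0.05 in these fits. With the copied siNC table as a library of its own the count was 4, where 12.0% of all genes were higher. Over the 13 alternatives, which include fits with 1 siNC library, the log2 fold changes kept their sign. They ran from 0.11 to 0.18 for Gars, 0.12 to 0.18 for Rars and 0.11 to 0.15 for Aars. In bulk RNA, fewer cells of a type and less RNA per cell cannot be told apart.

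Gars, which charges glycine tRNAs in both compartments, had 36.8, 35.3 and 37.0 FPKM in siCXCR4, against 33.6 and 32.1 FPKM in siNC. All 3 siCXCR4 libraries lay above both siNC libraries. The log2 fold change was 0.14 (SE 0.0504, 95% interval 0.02 to 0.26, limma adjusted p = 0.507), and each library held 1974 to 2501 of its reads. Gars lies on the plus strand of chromosome 6 at 55038007 to 55079500 (GRCm38), with a length of 3119 bases in the tables. Rars, the arginyl enzyme of the multisynthetase complex, had 67.9, 63.4 and 68.7 FPKM in siCXCR4, against 59.8 and 60.4 FPKM in siNC. Its groups did not overlap, and siCXCR4 replicate 2 was the closest to siNC. The log2 fold change was 0.15 (SE 0.0541, 95% interval 0.02 to 0.28, limma adjusted p = 0.512). Rars is encoded on chromosome 11, minus strand, from 35808381 to 35834506. Aars, the alanyl enzyme, had 46.2, 45.2 and 48.4 FPKM in siCXCR4, against 42.6 and 42.2 FPKM in siNC, again without overlap. Its log2 fold change was 0.13 (SE 0.0504, 95% interval 0.01 to 0.25, limma adjusted p = 0.512). Aars lies on the plus strand of chromosome 8 at 111033144 to 111057664 and shares 1326 exon bases on the same strand with Exosc6, which is listed at 0 reads in every library. Over the 13 alternatives computed, the adjusted p ran from 0.123 to 0.993 for Gars, from 0.147 to 0.924 for Rars and from 0.141 to 0.924 for Aars, the lowest of each being with the copied siNC table as a library.

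In 6 of the 20 cytosolic genes all siCXCR4 values lay above both siNC values, a pattern found in 17.9% of all genes tested, and in 0 of 20 they lay below, against 9.92% of all genes. Beside Gars, Rars, Aars and Nars these were Cars and Tars. Cars, the cysteinyl enzyme, had 18.0, 16.7 and 18.0 FPKM in siCXCR4, against 16.3 and 15.9 FPKM in siNC (log2 fold change 0.12, SE 0.0546). Tars, the threonyl enzyme, had 15.6, 15.6 and 15.5 FPKM in siCXCR4, against 14.4 and 15.1 FPKM in siNC (log2 fold change 0.07, SE 0.0483). For Tars the gap between the groups was smaller than the gap between the siNC libraries.

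**Figure D2:**
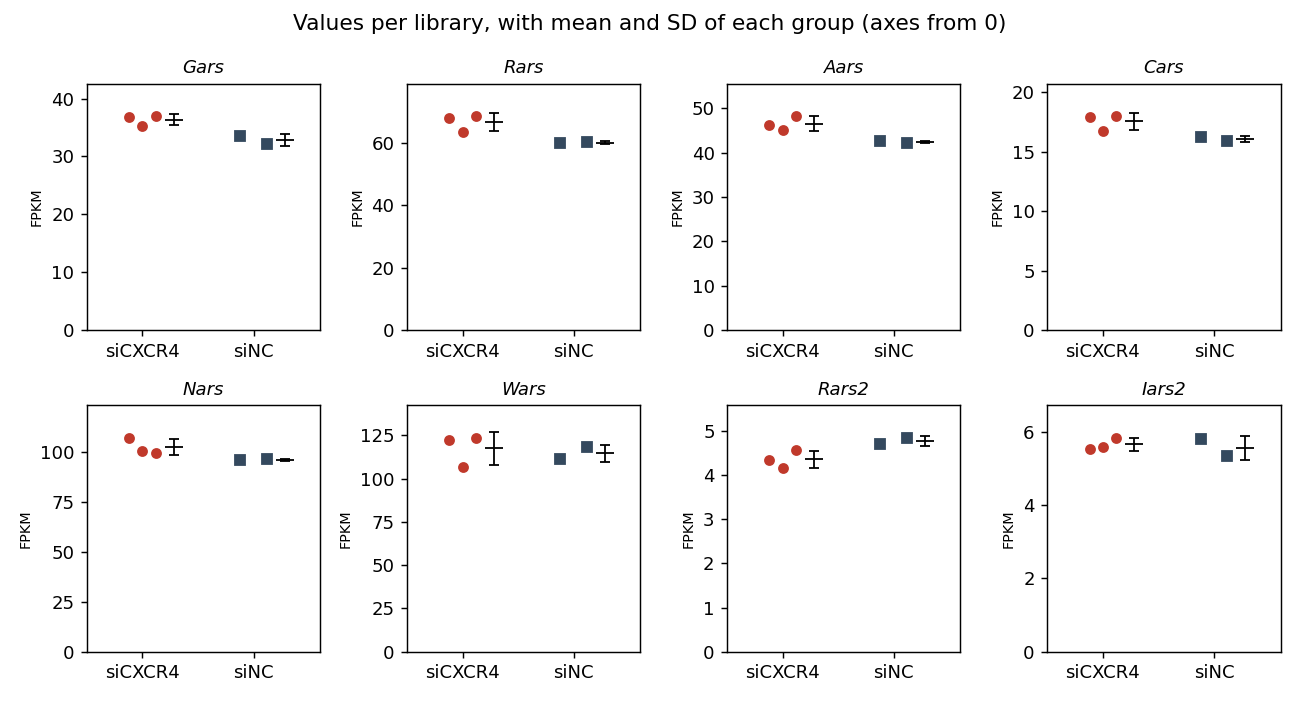
FPKM per library for 8 synthetase genes, siCXCR4 on the left (circles, n = 3) and siNC on the right (squares, n = 2) of each panel, with the mean and SD of each group beside the points and axes starting at 0. In Gars, Rars, Aars, Cars and Nars the siCXCR4 points lie above both siNC points, in Rars2 below them, and in Wars and Iars2 the groups overlap.

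Upstream sequence is printed for Gars and Aars, for Iars, a cytosolic gene that holds the same motif and whose groups overlapped, and for Rars2, the mitochondrial gene described below whose groups did not. The sequences are RefSeq promoters of GRCm38.p6, from 250 bases before to 50 after the annotated start, 5′ to 3′ on the gene's strand: chr6:55037751-55038050 for Gars, chr8:111033592-111033891 for Aars, chr13:49681880-49682179 for Iars and chr4:34614707-34615006 for Rars2, all on the plus strand. Capitals mark the C/EBP-ATF response element, the motif ATF4 is known to bind, in the first 3 and an ETS site in Rars2.
Gars: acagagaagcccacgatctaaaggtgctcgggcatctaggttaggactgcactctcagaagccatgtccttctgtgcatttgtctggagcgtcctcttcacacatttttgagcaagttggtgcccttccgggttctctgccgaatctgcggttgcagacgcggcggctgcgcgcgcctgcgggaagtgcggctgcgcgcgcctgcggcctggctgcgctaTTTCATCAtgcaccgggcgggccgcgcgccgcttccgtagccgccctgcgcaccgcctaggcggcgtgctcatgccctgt
Aars: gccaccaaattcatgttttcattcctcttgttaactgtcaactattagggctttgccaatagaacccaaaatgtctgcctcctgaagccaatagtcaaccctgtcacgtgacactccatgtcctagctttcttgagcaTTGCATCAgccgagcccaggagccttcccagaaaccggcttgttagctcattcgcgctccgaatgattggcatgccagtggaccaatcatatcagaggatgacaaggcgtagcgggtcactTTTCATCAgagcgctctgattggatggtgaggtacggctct
Iars: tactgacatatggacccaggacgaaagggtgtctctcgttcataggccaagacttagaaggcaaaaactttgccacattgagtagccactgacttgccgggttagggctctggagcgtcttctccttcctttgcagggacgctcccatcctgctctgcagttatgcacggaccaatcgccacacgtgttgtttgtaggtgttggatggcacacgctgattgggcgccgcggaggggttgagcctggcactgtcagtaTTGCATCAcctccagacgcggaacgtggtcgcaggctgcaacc
Rars2: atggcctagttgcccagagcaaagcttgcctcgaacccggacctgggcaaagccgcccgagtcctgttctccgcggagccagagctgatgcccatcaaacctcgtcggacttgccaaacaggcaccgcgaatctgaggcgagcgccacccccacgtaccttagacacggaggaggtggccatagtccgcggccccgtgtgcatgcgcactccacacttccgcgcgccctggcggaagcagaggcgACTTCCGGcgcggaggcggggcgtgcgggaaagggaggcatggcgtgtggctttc

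The C/EBP-ATF response element was searched as TGATGNAA on both strands, and 3.97% of all 32851 promoters in the table held it. Promoters of 27 of the 37 members were matched, 13 cytosolic and 14 mitochondrial. The motif was in 5 of the 13 cytosolic promoters (Aars, Gars, Iars, Tars and Yars) and in 0 of the 14 mitochondrial ones. Aars held it at both capitalised places. The ETS site, CCGGAAGT on both strands, was in 3.89% of all promoters, in 2 cytosolic ones (Farsa and Mars) and in 1 mitochondrial one (Rars2). The site of the mitochondrial biogenesis factor NRF1, searched on both strands as GCGC and TGCGC with 1 base between them, was in 4.60% of all promoters, in 3 cytosolic (Farsb, Kars and Tars) and in 2 mitochondrial ones (Iars2 and Mars2). The interferon-stimulated response element, searched on both strands as GAAA and GAAA with 2 bases between them, was in 3.44% of all promoters and in 1 of these, that of Qars. No matched site overlapped one of another motif in these 27 promoters. A match is a run of letters and not a measured binding site. No promoter was used for Wars, Nars, Rars and Cars. In the deposited tables Aars begins before the RefSeq start, so its printed promoter lies inside the gene as listed there.

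The genes with the motif had log2 fold changes on both sides of 0. The log2 fold change was 0.14 for Gars and 0.13 for Aars, and 0.07, 0.05 and -0.02 for Tars, Yars and Iars. Iars, the isoleucyl enzyme, had 15.5, 16.5 and 16.5 FPKM in siCXCR4, against 16.3 and 16.5 FPKM in siNC, with a 95% interval of -0.14 to 0.11. Rars, Cars and Nars, for which no promoter was matched, are not part of this count.

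Of the remaining cytosolic genes, the enzymes for histidine (Hars), valine (Vars), glutamate and proline (Eprs, which joins both activities), lysine (Kars), tyrosine (Yars), serine (Sars) and glutamine (Qars) had log2 fold changes from 0.02 for Qars to 0.11 for Hars, with overlapping groups in each. Hars had 26.9, 27.0 and 23.7 FPKM in siCXCR4, against 24.0 and 23.6 FPKM in siNC. Its siCXCR4 replicate 3 lay among the siNC libraries, apart from the other siCXCR4 libraries. Lars, Mars and Dars, for leucine, methionine and aspartate, had log2 fold changes of -0.01, -0.01 and -0.003. Phenylalanyl-tRNA synthetase is built of subunits from Farsa and Farsb. Farsb, the beta subunit, had 17.3, 16.5 and 15.5 FPKM in siCXCR4, against 17.5 and 16.7 FPKM in siNC, and a log2 fold change of -0.05 (SE 0.0607). Farsa, the catalytic alpha subunit, had 13.5, 13.3 and 13.4 FPKM in siCXCR4, against 14.1 and 13.2 FPKM in siNC, and a log2 fold change of -0.02 (SE 0.0520). These subunits were the lowest of the cytosolic enzymes by log2 fold change. Mars shares 68 exon bases with Ddit3 on the opposite strand, and whether reads were counted by strand is not stated in the sources at hand.

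Seen as a class, 14 of the 20 cytosolic genes had a log2 fold change above 0, where 56.4% of all genes tested did. The median was 0.05, against 0.01 over all genes tested. By edgeR the median was 0.04, against 0.00 over the same tested genes, and 14 of 20 were again above 0. The limma background moved with level. Among genes averaging 5 FPKM or more, which include all 20 cytosolic genes, 3608 of 5843 were above 0, with a median of 0.03. Of these 5843 genes, 7.84% were higher at an unadjusted p under 0.05. Without a filter the median over all genes was 0.001. Every 95% interval of a cytosolic gene lay between -0.20 and 0.28 on the log2 scale. Within the class, 8 enzymes belong to the multisynthetase complex (Eprs, Iars, Lars, Qars, Mars, Kars, Rars and Dars), a split made after the values were seen. The complex had 4 genes above 0 and 4 below, with a median log2 fold change of 0.01. The 12 other cytosolic genes had 10 above 0 and 2 below, with a median of 0.07. The difference between these subsets was not tested.

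Of the 17 mitochondrial genes 14 passed the filter, and 0 of them had an adjusted p under 0.05, as did 0% of all genes tested. At an unadjusted p under 0.05, 0 were higher and 0 lower by limma, where 5.80% of all genes tested were higher and 3.54% lower. By edgeR 0 of all 17 passed either threshold. Of all genes, edgeR called 0.133% at the adjusted threshold, and 4.46% higher and 5.27% lower at the unadjusted one. Of the 14, 4 had a log2 fold change above 0, where 56.4% of all genes tested did, and 10 below. The median of these mitochondrial genes was -0.04, and -0.05 by edgeR. Their levels are lower and their intervals wider than those of the cytosolic genes, with a lower bound of -0.28 for Ears2 and an upper bound of 0.35 for Pars2.

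Among the 14 tested mitochondrial genes, 1 had all siCXCR4 values below both siNC values, a pattern found in 9.92% of all genes tested. This share below among the mitochondrial genes was near that of all genes. The gene was Rars2, the mitochondrial arginyl enzyme. It had 4.34, 4.17 and 4.56 FPKM in siCXCR4, against 4.69 and 4.85 FPKM in siNC, all siCXCR4 values being the lower. Its log2 fold change was -0.11 (SE 0.0613, 95% interval -0.25 to 0.04, limma adjusted p = 0.615). The gene lies on the plus strand of chromosome 4 at 34614957 to 34660167. Sars2, the seryl enzyme, had 2.55, 2.46 and 2.33 FPKM in siCXCR4, against 2.86 and 2.51 FPKM in siNC, and a log2 fold change of -0.10 (SE 0.0740). Without siNC replicate 1 it was -0.03.

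In the other direction Pars2, the prolyl enzyme, had 1.62, 1.55 and 1.20 FPKM in siCXCR4, against 1.245 and 1.262 FPKM in siNC. Its siCXCR4 replicate 3 was the lowest library, and the log2 fold change was 0.12 (SE 0.0986) on 71 to 109 reads per library. Fars2, the phenylalanyl enzyme, which works as a single chain, had 2.03, 2.01 and 1.78 FPKM in siCXCR4, against 1.84 and 1.72 FPKM in siNC, and a log2 fold change of 0.08 (SE 0.0762). Iars2, the most abundant mitochondrial member, had 5.52, 5.59 and 5.84 FPKM in siCXCR4, against 5.80 and 5.33 FPKM in siNC, with overlapping groups. Iars2 shares 2034 exon bases with Rab3gap2 on the opposite strand. Hars2 had 4.16, 3.88 and 4.42 FPKM in siCXCR4, against 4.18 and 4.61 FPKM in siNC, and shares 195 exon bases with Hars, its head-to-head neighbour. In all, 9 members share exon bases with another gene that averaged more than 1 read.

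The other tested mitochondrial genes overlapped between the groups, with log2 fold changes from -0.06 (Wars2) to 0.005 (Tars2). Vars2, Nars2 and Mars2 averaged below 1 FPKM and were left out of the limma fit. Vars2, just under the filter, had 0.933, 0.935 and 0.822 FPKM in siCXCR4, against 0.822 and 1.01 FPKM in siNC, and Lars2, just above it, averaged 1.22 ± 0.0362 FPKM in siCXCR4 (SD, n = 3) and 1.23 ± 0.0155 FPKM in siNC (SD, n = 2). Mars2, the least abundant member, had 0.285, 0.228 and 0.236 FPKM in siCXCR4, against 0.269 and 0.269 FPKM in siNC. For Nars2 the values were 0.362, 0.615 and 0.397 FPKM in siCXCR4, against 0.345 and 0.393 FPKM in siNC, with siCXCR4 replicate 2 far above the other libraries on 83 reads.

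**Figure D3:**
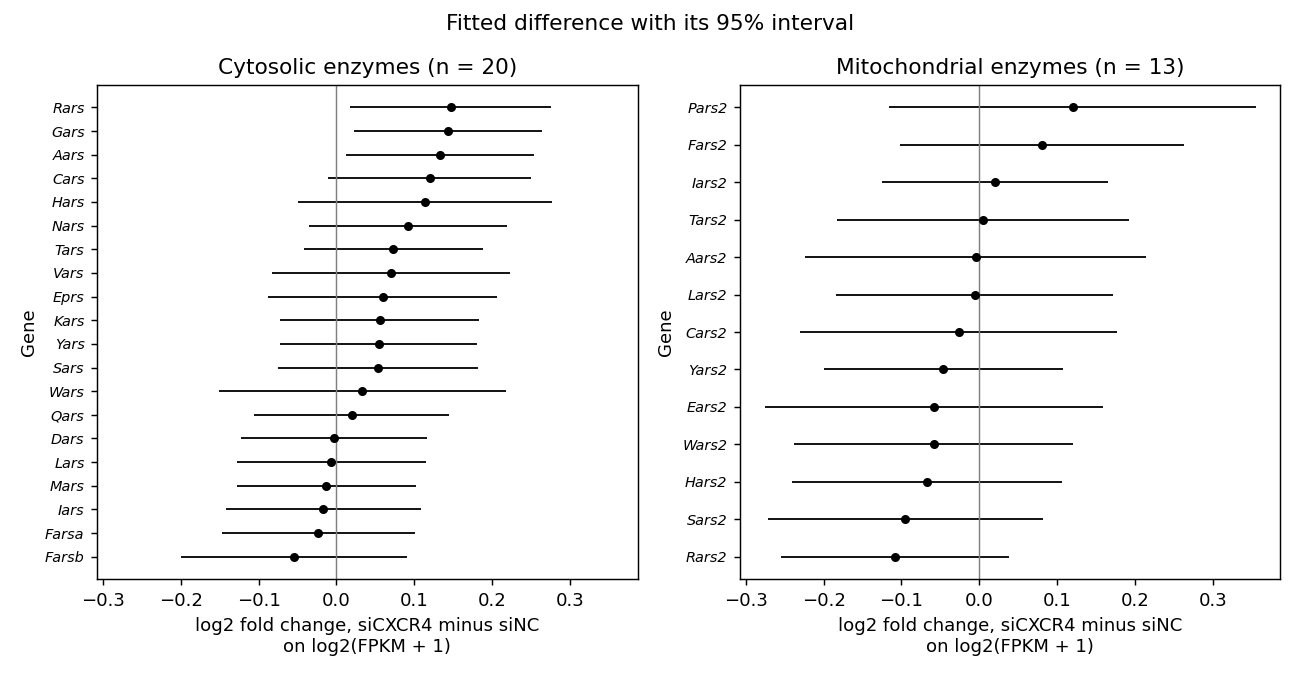
Fitted log2 fold change, siCXCR4 minus siNC on log2(FPKM + 1), with its 95% interval from limma, for 20 cytosolic (left) and 13 mitochondrial (right) genes. The intervals of Rars, Gars and Aars lie above 0 before adjustment, and every other interval crosses 0.

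Cytosolic genes were set against their mitochondrial counterparts for the same amino acid. Farsa and Farsb were each set against Fars2, and Eprs against both Ears2 and Pars2. In FPKM the cytosolic gene was the higher one in all 18 pairs and every library, which follows from the separation of the classes given above. The size of each ratio also depends on the listed gene lengths. The ratio of FPKM was largest for asparagine, where Nars over Nars2 was 296, 163 and 250.4 in siCXCR4, against 277 and 245 in siNC. It was smallest for isoleucine, where Iars over Iars2 was 2.81, 2.96 and 2.83 in siCXCR4, against 2.81 and 3.09 in siNC. In both pairs the groups overlapped. For arginine the groups were apart: Rars over Rars2 was 15.6, 15.2 and 15.1 in siCXCR4, against 12.7 and 12.4 in siNC, a difference of 0.28 in the log2 ratio. Serine, cysteine and tyrosine also had higher ratios in all siCXCR4 libraries. The lowest siCXCR4 and highest siNC ratios were close for cysteine (8.60 against 8.51) and tyrosine (3.13 against 3.07). Serine (Sars over Sars2) averaged 13.7 ± 0.327 in siCXCR4 (SD, n = 3) and 12.1 ± 1.17 in siNC (SD, n = 2). For phenylalanine the ratios were lower in all siCXCR4 libraries, with Farsb over Fars2 at 8.49 ± 0.258 in siCXCR4 (SD, n = 3) and 9.62 ± 0.121 in siNC (SD, n = 2). The log2 ratio was higher in siCXCR4 in 13 of 18 pairs, with a median difference of 0.11. In 4 pairs all siCXCR4 ratios lay above both siNC ratios, in 2 all lay below, and 12 pairs overlapped. No share over other gene pairs was computed. Of single genes tested, 17.9% lay above and 9.92% below. These pairs share genes and libraries and were not tested.

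**Figure D4:**
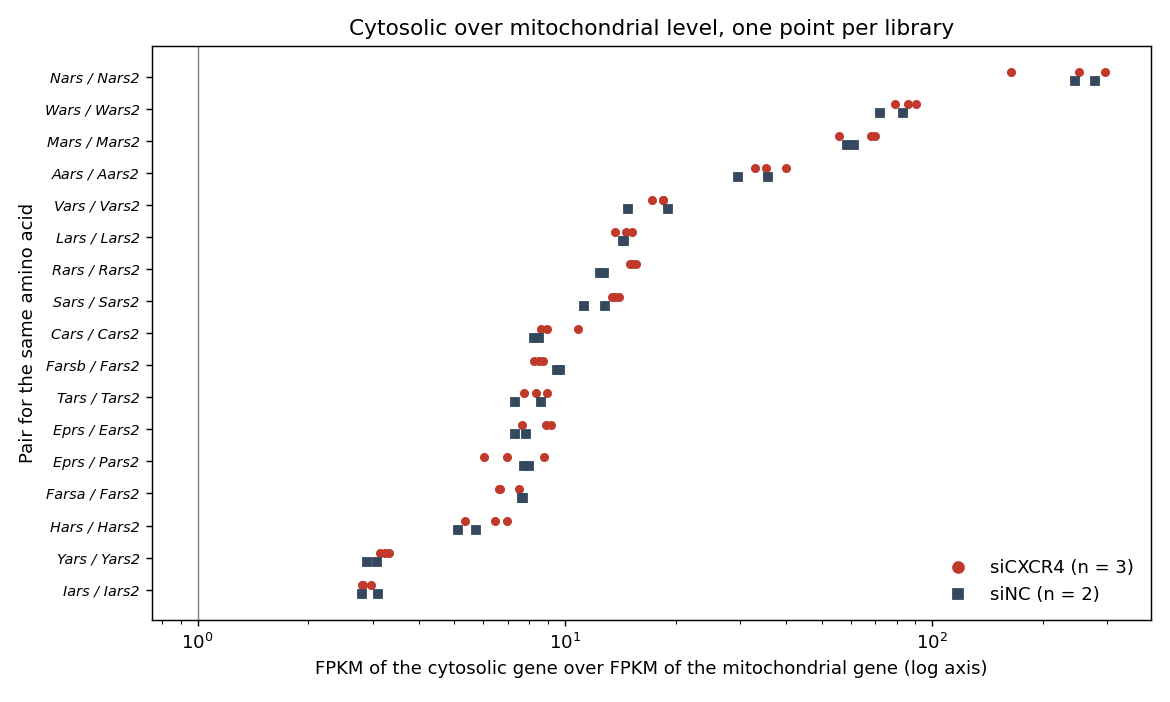
FPKM of the cytosolic over that of the mitochondrial gene for the same amino acid in 17 pairs, on a log axis, with 1 point per library (siCXCR4 circles above, siNC squares below in each row). All ratios lie above 1, from 2.81 for Iars over Iars2 to 296 for Nars over Nars2, and the groups are apart for Rars over Rars2.

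Summed over the class, cytosolic synthetase mRNA averaged 628 ± 17.1 FPKM in siCXCR4 (SD, n = 3) and 598 ± 3.55 FPKM in siNC (SD, n = 2). The single libraries had 644, 610.1 and 632 FPKM in siCXCR4, against 595 and 600.3 FPKM in siNC, without overlap, and siCXCR4 replicate 2 was the closest to siNC. The mitochondrial sum averaged 35.6 ± 0.345 FPKM in siCXCR4 and 36.7 ± 0.473 FPKM in siNC. Its single libraries had 35.8, 35.9 and 35.2 FPKM in siCXCR4, against 37.0 and 36.3 FPKM in siNC, also without overlap, siCXCR4 being the lower. The cytosolic sum was 18.0, 17.01 and 17.93 times the mitochondrial sum in siCXCR4, against 16.1 and 16.5 times in siNC. This ratio does not depend on the library's total. These sums are a description of chosen genes, weighted towards Wars and Nars, and carry no test.

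The scaffold genes of the multisynthetase complex had log2 fold changes of both signs. Aimp2 had 4.39, 3.81 and 4.01 FPKM in siCXCR4, against 3.48 and 3.31 FPKM in siNC (log2 fold change 0.20, SE 0.0715, limma adjusted p = 0.507). Aimp1 lay the other way, with 5.15, 5.16 and 4.80 FPKM in siCXCR4, against 5.55 and 5.69 FPKM in siNC (log2 fold change -0.13, SE 0.0591). Eef1e1 had 5.12, 6.97 and 4.73 FPKM in siCXCR4, against 7.67 and 6.62 FPKM in siNC, where siCXCR4 replicate 2 lay between the siNC libraries. None of the 3 passed the adjusted threshold by limma or edgeR, where these called 0% and 0.133% of all genes. At an unadjusted p under 0.05, limma gave 1 higher (Aimp2) and 0 lower, where 5.80% of all genes were higher and 3.54% lower. By edgeR 0 were higher and 2 lower (Aimp1 and Eef1e1), where 4.46% of all genes were higher and 5.27% lower.

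Most genes of the GCN2-ATF4 amino acid response had higher values in siCXCR4. This list was chosen with earlier results of these data known. Of 27 listed genes 26 were tested, 20 had a log2 fold change above 0, where 56.4% of all genes tested did, and 6 below. The median was 0.10, against 0.01 over all genes tested. The lowest was the transporter gene Slc7a11, with 28.2, 38.5 and 27.7 FPKM in siCXCR4, against 38.05 and 33.4 FPKM in siNC (log2 fold change -0.19, SE 0.158). At an unadjusted p under 0.05, 10 were higher and 0 lower by limma, where 5.80% of all genes tested were higher and 3.54% lower. None passed the adjusted threshold, where limma called 0% and edgeR 0.133% of all genes. Counts added after the values were seen gave 6, 7 and 6 higher without siCXCR4 replicates 1, 2 and 3, 4 without siNC replicate 1 and 5 without siNC replicate 2, and 1 was lower without siCXCR4 replicate 2. Of all genes tested, 3.19%, 7.92% and 4.20% were higher without siCXCR4 replicates 1, 2 and 3, 3.35% without siNC replicate 1 and 3.58% without siNC replicate 2, and 6.18% were lower without siCXCR4 replicate 2. By edgeR 8 were higher and 0 lower, where 4.46% of all genes were higher and 5.27% lower. By DESeq2 5 were higher, where 2.38% of all genes were. With the replicate block 6 were higher, where 2.53% of all genes were, and with the copied siNC table as a library 13 were, where 12.0% of all genes were. In 16 of the 26 all siCXCR4 values lay above both siNC values, where 17.9% of all genes tested did. Ppp1r15a, a phosphatase subunit that restores translation, had 39.1, 37.2 and 38.9 FPKM in siCXCR4, against 32.0 and 31.6 FPKM in siNC (log2 fold change 0.27, SE 0.0483, limma adjusted p = 0.389). Sesn2, which signals amino acid shortage to mTORC1, had 40.2, 38.1 and 38.2 FPKM in siCXCR4, against 33.1 and 32.7 FPKM in siNC (log2 fold change 0.23, SE 0.0490). Slc3a2, the heavy chain of amino acid transporters and the most abundant of the list, had 226, 224 and 222.5 FPKM in siCXCR4, against 213 and 215 FPKM in siNC (log2 fold change 0.07, SE 0.0470). The neutrophil markers S100a8 and S100a9 and the share of reads outside genes, given above, differed between the same groups, and their part in this pattern was not tested.

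In the lists of genes that act beside or after the synthetases, 0 passed the adjusted threshold by limma or edgeR. Of all genes, these called 0% and 0.133%. At an unadjusted p under 0.05, limma had 5.80% of all genes tested higher and 3.54% lower, and edgeR 4.46% and 5.27%. A log2 fold change above 0 was found in 56.4% of all genes tested by limma. For mitochondrial translation 16 of 17 listed genes were tested, 11 had a log2 fold change above 0 and 5 below, with a median of 0.01, and 0 had an unadjusted p under 0.05. Mrrf, the mitochondrial ribosome recycling factor, stood at a log2 fold change of -0.14 (SE 0.0953). Gatc, a subunit of the amidotransferase that makes mitochondrial glutaminyl-tRNA, stood at -0.09 (SE 0.0651), and Tufm, the elongation factor that carries charged tRNA, at 0.03 (SE 0.0574). For cytosolic elongation and termination 8 of 9 genes were tested, 5 above 0 and 3 below, with a median of 0.01 and 0 at an unadjusted p under 0.05 by limma. By edgeR 1 of the 9, Eef1b2, had an unadjusted p under 0.05, being lower in siCXCR4 (log2 fold change -0.16). Eef1b2 had 41.2, 43.7 and 37.1 FPKM in siCXCR4, against 44.2 and 45.6 FPKM in siNC. Etf1, the release factor, stood at a log2 fold change of 0.07 (SE 0.0449), and Eef1a1, which delivers charged tRNA to the ribosome, at 0.01 (SE 0.0583). Of 7 proofreading and synthetase-like genes 5 were tested, 1 above 0 and 4 below, with a median of -0.09 and 0 at an unadjusted p under 0.05. Among these were Dtd1 and Dtd2, deacylases that clear mischarged tRNA, at -0.20 (SE 0.110) and -0.09 (SE 0.0797), and Prorsd1 at -0.08 (SE 0.0676).

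**Figure D5:**
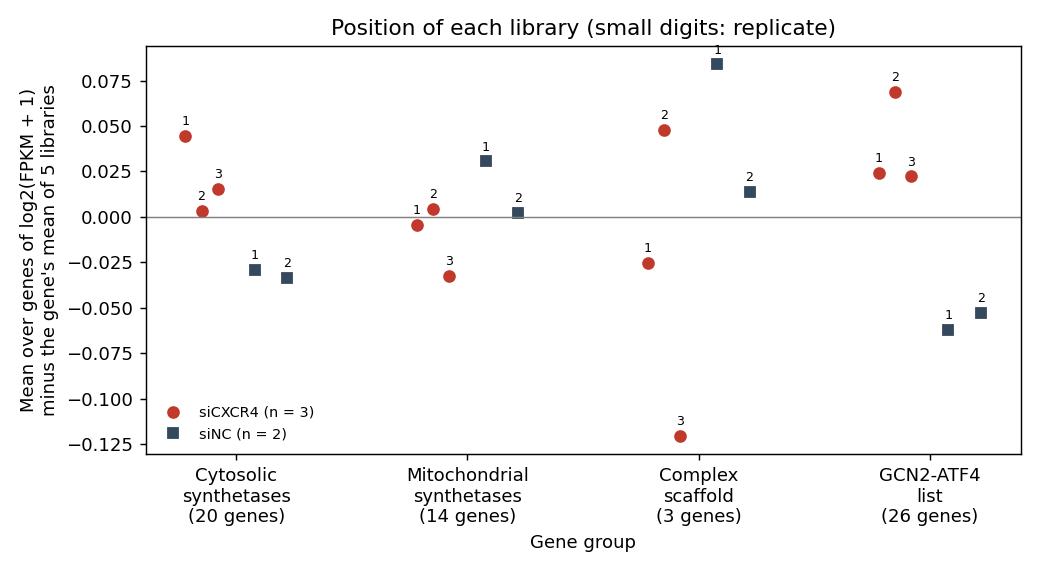
Position of each library, as the mean over the tested genes of a group of log2(FPKM + 1) minus the gene's mean over 5 libraries, with siCXCR4 circles left of siNC squares and the replicate as a small digit. For the cytosolic synthetases the siCXCR4 libraries lie at 0.04, 0.003 and 0.02 and the siNC libraries at -0.03 and -0.03. For the GCN2-ATF4 list the siCXCR4 libraries lie at 0.02, 0.07 and 0.02 and the siNC libraries at -0.06 and -0.05. For the mitochondrial synthetases and the scaffold genes the groups overlap.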

How the data were processed

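Gene-level tables of 6 samples were used. In 5 of them the authors deposited FPKM values, a unit read from the values since the file headers name none, which cannot tell FPKM from RPKM. The table of siNC replicate 3 holds read counts as deposited. The submitters' processing notes name the build mm9, yet 98.3% of the genes shared with GENCODE M21, and 34 of 37 members, have the same GRCm38 position, so positions are in GRCm38. The aligner, counting tool, strand setting and treatment of multiply matching reads are not stated in the sources at hand. Whole reads were worked back from FPKM times gene length, and 100% of values were whole within 0.05.

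Of several entries with 1 symbol the most abundant was kept. The fit used limma 3.58.1 in R 4.3.3 with trend and robust estimate on log2(FPKM + 1), pseudocount 1, for genes averaging 1 FPKM or more. Its p-values are two-sided and were adjusted by Benjamini-Hochberg over all 9943 genes. A fold change on this scale understates that of low genes. Alternatives were edgeR 4.0.16 (TMM) and DESeq2 1.42.0 on whole reads, other filters, pseudocount and scaling, each library left out, a replicate block and the copied table as a library. The limma and edgeR fits were also run on simulated data with planted changes. The outcome is not given here, and no result rests on it. No molecular identifiers are named in the labels, so read numbers cover counting error alone. Members named in full were those at unadjusted p under 0.05 and the 3 of lowest p per direction and class. The 3 most abundant per class and the extreme pairs were also named in full. Of each other list these were the 2 of lowest p and the most abundant. Tars, Cars, Hars, Vars2, Mars2, Lars2, Slc7a11, Cd68, Mertk and further pairs were added after their values were seen. Of the members, 1 member is not reported here. The members and lists were chosen with earlier results of these data known.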

Additional observations from a re-analysis of the deposited data

How the results depend on the processing

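No synthetase gene passed the adjusted threshold under any of the 13 alternatives. Over all genes, where limma called 0, edgeR called 17, DESeq2 31 and limma with siNC replicate 3 as a separate library 6, and leaving out single libraries gave 0 to 2. The count of members at an unadjusted p under 0.05, 3 in limma, was 1 with the replicate block and 5 with the copied table as a library (4 cytosolic genes higher and 1 mitochondrial gene lower in siCXCR4), and ran from 0 to 4 without single libraries. The cytosolic median stayed between 0.03 and 0.07 and the mitochondrial median between -0.05 and -0.02, with no mitochondrial value for a mean of at least 5 FPKM, which leaves 1 mitochondrial gene. Of 34 members tested, 21 kept their sign in every alternative, 13 cytosolic and 8 mitochondrial. Among the named members, signs turned for Iars2 and Wars with the replicate block (-0.0004 and -0.0053). They also turned without single libraries, where values ran from -0.031 to 0.0709 for Iars2, -0.011 to 0.101 for Wars, -0.0319 to 0.0116 for Iars and -0.0688 to 0.0223 for Farsa, and the cause was not tested. Cxcr4 ran from -0.38 to -0.27, with adjusted p from 0.0637 to 0.866. Whether replicate numbers pair the libraries cannot be told from the values. Deviations from the group means correlated at -0.04 between replicates 1 and at -0.11 between replicates 2. With 2 siNC libraries, however, the deviations of one are the exact negatives of the other. The block left 1 residual degree of freedom, and siCXCR4 replicate 3 has no partner in it. The 5 libraries and the low mitochondrial counts limit what could be detected.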
